A study of Mus musculus with 8 samples.

Results

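Paneth cells sit at the bottom of small intestinal crypts, where they store antimicrobial products in large apical granules and release them by regulated exocytosis. The genes described here are 10 parts of that release machinery. They are the Rab GTPases Rab3d, Rab26, Rab27a and Rab27b, the Rab27 effector Sytl2, the SNAREs Vamp8, Stx3 and Snap23, and, on the triggering side, the muscarinic receptor Chrm3 and the calcium-activated potassium channel Kcnn4. They were picked by name, with earlier results of these data known, and each was found in the count table by the Ensembl gene ID that the GENCODE mouse annotation pairs with its symbol, which gave 10 of 55414 IDs.

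All libraries were RNA-seq of Paneth cells sorted from the small intestine of wild-type mice (C57BL/6J in the study's methods) 3 h after an injection. The control group of 4 libraries received phosphate-buffered saline (PBS) and the treated group of 4 received tumor necrosis factor (TNF), an inflammatory cytokine. The series asked how TNF alters gene expression in Paneth cells. No transgene or deletion is named in the labels, and the sources used here do not give dose, route, age or sex. The series' design text calls the libraries biological replicates, and the study's methods describe sorted cells from individual mice.

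Libraries held between 23824717 and 32576077 counts. TNF replicate 4 stood apart from the others. Its Defa genes (the alpha-defensin family) took 51.5% of counts, against 32.0% to 37.9% in the other 7 libraries, and its TMM scaling factor was 0.448, against 0.995 to 1.36. Many of the results below are therefore given with and without it. All 6 Paneth markers checked (Lyz1, Mmp7, Itln1, Ang4, Pla2g2a and Defa24) were abundant, with a summed level of 270500 to 395400 normalized CPM in PBS and 337800 to 1032000 in TNF (the highest in replicate 4, where the low factor scales values up). Here normalized CPM are counts scaled by a library's total times its TMM factor. Markers of other cells were also read. The summed level of enterocyte markers was 294 to 328 normalized CPM in PBS and 142 to 160 in TNF, with 2 of 8 called lower. Most of that sum was Anpep (mean 251 in PBS and 97.3 in TNF), and Apoa4 was the other marker called (log2 fold change -3.94, at 1.66 and 0.101). The 6 not called had log2 fold changes of -2.57 (Lct) to -0.027 (Slc5a1). Goblet markers summed to 7155 to 11180 in PBS and 11240 to 25430 in TNF, with Muc2 called higher and Clca1 and Fcgbp lower among 7. Of the stroma and mast cell markers, the 1 of each list that was tested was called, Vim higher (log2 fold change 2.05, at a mean of 0.272 in PBS and 1.16 in TNF) and Kit lower (-1.83, at 188 and 52.8). The other mast cell markers were at or near 0. Cpa3, Mcpt1, Mcpt2 and Ms4a2, 4 of the 6 listed, had 0 counts in every library, and Fcer1a had at most 3. Col3a1 of the stroma list also had 0 counts in every library. In addition, 4 of 6 stem cell markers were called lower. Enteroendocrine markers summed to 10.3 to 13.2 in PBS and 30.3 to 61.0 in TNF, with 3 of 4 tested called higher. Of 9 immune markers 5, among them Cd3e, Cd8a, Itgax and Gzma, had 0 counts in every library, and of 6 pancreatic acinar markers 5 had 0. The part of these other cells in the results below was not tested.

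In regulated exocytosis a granule is carried to the apical membrane, tethered and docked by Rab GTPases and their effectors, and then fused when a vesicle SNARE pairs with SNAREs of the target membrane. Rab3d and the Rab27 proteins sit on mature granules of exocrine cells, Vamp8 is the granule SNARE of many of these cells, and Stx3 and Snap23 are SNAREs of the apical plasma membrane. Acetylcholine acting on muscarinic receptors raises cytosolic calcium, which sets off fusion and opens Kcnn4, a channel found in Paneth cells.

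Promoter windows, the 250 bases before the transcription start, were taken from RefSeq (GRCm38.p6) to show the sequence upstream of the genes whose levels are compared below. The table held 8 windows for 7 of the 10 genes. Shown here are the 2 genes with the largest rise, Snap23 (chr2:120567421-120567670, plus strand) and Stx3 (chr19:11819404-11819653, minus strand), and a gene that fell, Rab3d (chr9:21918184-21918433, minus strand). Capitals mark matches to the 8 short motifs searched on both strands.
Snap23: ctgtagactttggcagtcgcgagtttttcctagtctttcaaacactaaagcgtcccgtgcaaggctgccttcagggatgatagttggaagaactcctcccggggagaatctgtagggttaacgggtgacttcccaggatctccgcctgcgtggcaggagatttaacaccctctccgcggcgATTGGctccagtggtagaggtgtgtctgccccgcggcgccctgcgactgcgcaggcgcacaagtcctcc
Stx3: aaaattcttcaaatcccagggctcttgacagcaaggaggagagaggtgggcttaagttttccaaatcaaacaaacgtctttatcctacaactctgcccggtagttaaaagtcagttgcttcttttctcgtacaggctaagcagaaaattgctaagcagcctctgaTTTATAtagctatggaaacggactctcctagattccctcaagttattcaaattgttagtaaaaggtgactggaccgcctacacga
Rab3d: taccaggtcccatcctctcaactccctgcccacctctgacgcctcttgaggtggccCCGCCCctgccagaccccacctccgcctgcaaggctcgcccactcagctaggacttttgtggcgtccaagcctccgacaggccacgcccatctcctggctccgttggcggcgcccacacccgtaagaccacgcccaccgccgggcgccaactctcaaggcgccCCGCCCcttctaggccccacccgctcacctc
In Snap23 the capitals are a CCAAT box, CCAAT read on the other strand, 69 bases before the start. In Stx3 they are a match to the TATA-like TATAAA on the other strand, 85 bases before the start. The Rab3d window held the GC box GGGCGG 2 times, at 194 and 31 bases before the start. Its GC content of 69.2% was above the median of 52.4% over 32851 RefSeq windows, while Stx3 was at 42% and Snap23 at 58.4%.

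No window of these genes held the kappa B-like GGGANNTTCC, which 1.21% of all windows held. The interferon response-like GAAANNGAAA (2.98% of all windows) and the AP-1 motif TGACTCA (4.46%) were not found either. The E-box CATATG, held by 3.46% of all windows, was in 1 of the 8 windows, a Rab27a window that also held the E-box CAGCTG (13% of all windows). GC boxes stood in 3 windows (32.7% of all), CCAAT in 2 (33.8%) and TATAAA in 1 (12.4%). No match overlapped another, and a match or its absence describes only the letters of these windows.

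Levels of different genes were compared per kilobase of exon (RPKM, normalized CPM divided by the union of a gene's exons). In PBS, Rab3d was the most abundant of the 10 genes at 49.0 ± 4.56 RPKM (SD, n = 4), above 98.3% of tested genes. Vamp8 (11.2 ± 0.977), Rab27a (10.5 ± 0.894), Sytl2 (8.19 ± 3.57), Rab27b (5.98 ± 0.403) and Chrm3 (4.84 ± 1.00) followed. Snap23 was at 3.30 ± 0.201, Kcnn4 at 1.37 ± 0.299, Stx3 at 0.897 ± 0.0810 and Rab26 at 0.179 ± 0.0525, the last above only 8.49% of tested genes. Rab3d thus stood first in PBS, and both membrane SNAREs stood in the lower part of the order.

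PBS values did not overlap between Rab3d and Vamp8, Chrm3 and Snap23, Snap23 and Kcnn4, or Stx3 and Rab26. Adjacent genes from Vamp8 down to Chrm3 overlapped, as did Kcnn4 and Stx3, so the order within each of those pairs is not set by these data. Vamp8 and Rab27a still lay above every value of Rab27b and Chrm3. In TNF, 7 of the 10 genes took another rank. Sytl2 moved from rank 4 to 2 and Snap23 from 7 to 5, while Rab27b moved from 5 to 8.

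**Figure D1:**
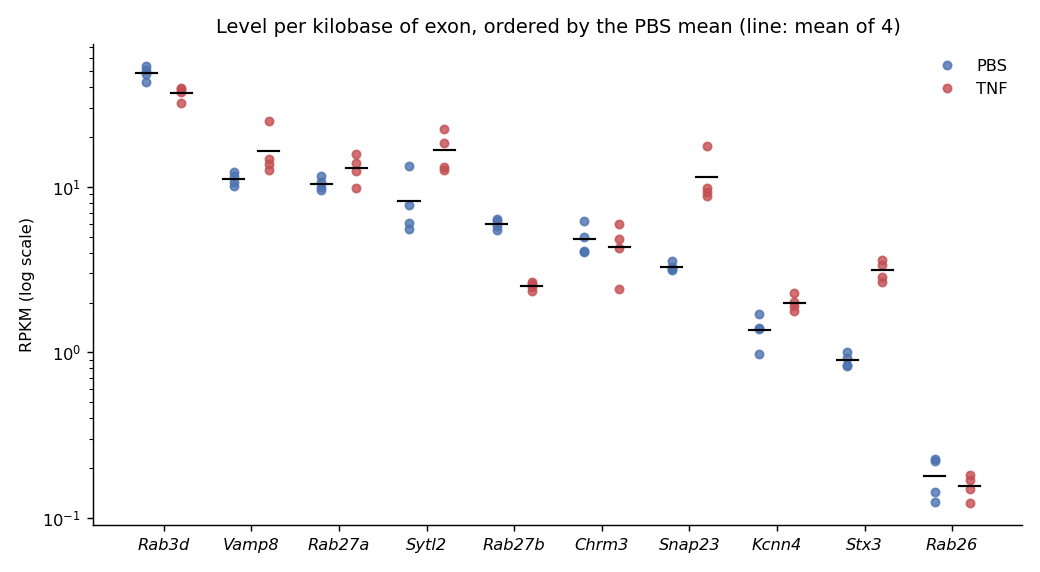
Level of each gene in RPKM on a log axis, ordered by the PBS mean, with a point for each library (blue PBS, red TNF) and a line at the mean of 4. Rab3d lies above and Rab26 below all other genes in both groups, and the TNF points of Stx3, Snap23 and Rab27b lie clear of their PBS points.

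TNF was compared with PBS by the edgeR quasi-likelihood test over all 13368 tested genes, and a gene was called when its Benjamini-Hochberg adjusted p was under 0.05. All 10 genes passed the filter on low counts. Of them 7 were called, against 43.0% of all tested genes, and leaving out 1 library gave 4 (without PBS replicate 1 or TNF replicate 2) to 8 calls (without TNF replicate 4). Stx3, Snap23, Sytl2, Vamp8 and Kcnn4 were called higher (5 of 10, against 23.4% of all tested genes) and Rab27b and Rab3d lower (2 of 10, against 19.6%), while Rab26, Rab27a and Chrm3 were not called. No overlap between the 4 TNF and 4 PBS values was seen in 6 of the 10 (Rab3d, Rab27b, Vamp8, Stx3, Snap23 and Kcnn4), against 42.1% of all tested genes. The median log2 fold change was 0.43 over the 10 genes and 0.03 over all tested genes. In such bulk libraries, fewer cells of a type and less RNA per cell cannot be told apart.

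Scaling by library size alone, with no TMM factor, moved the median of all tested genes to -0.38, with a median shift per gene of -0.39. Under it only Stx3, Snap23 and Rab27b of the 10 genes were called, each in the same direction. The calls of these 3 genes also held under all 16 alternatives other than a stricter threshold, and at an adjusted p under 0.01.

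**Figure D2:**
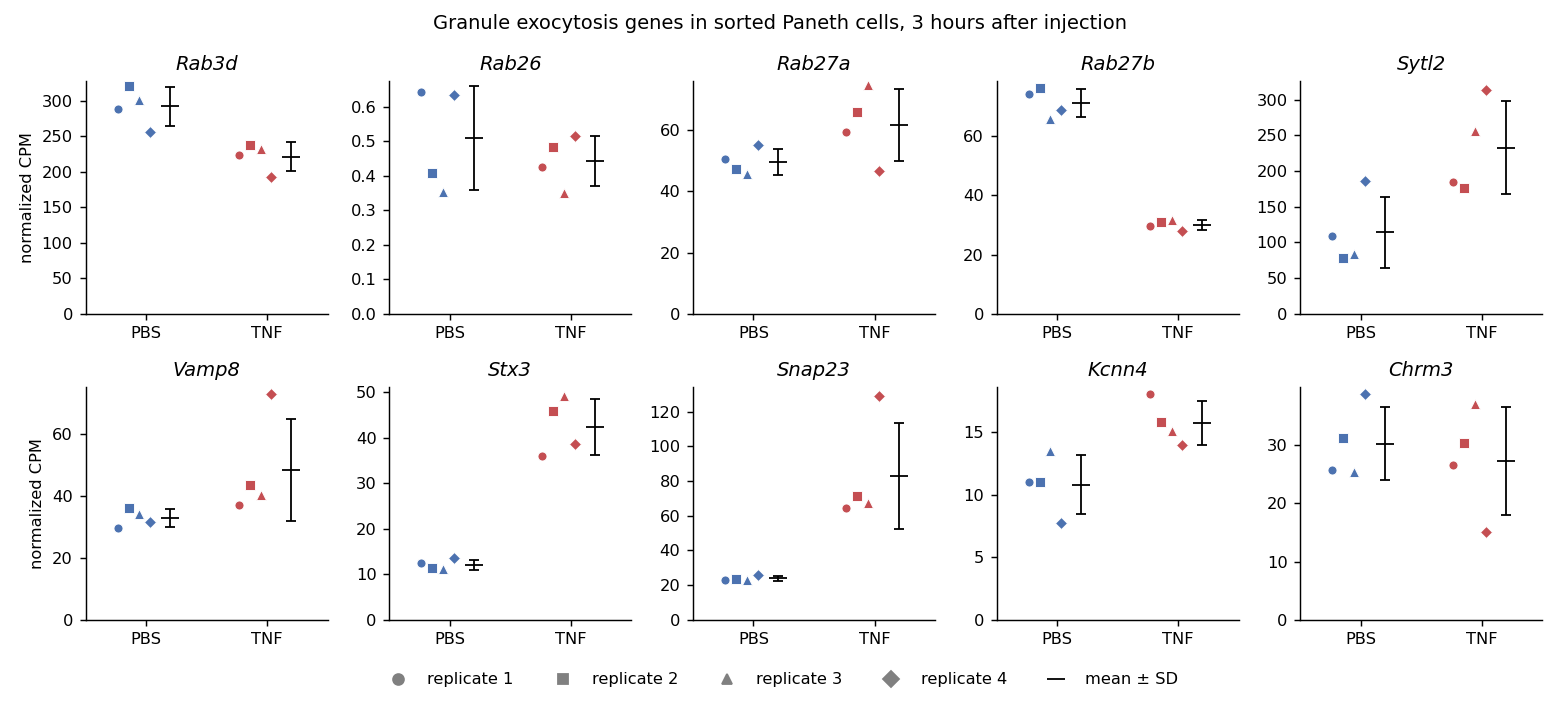
Normalized CPM of the 10 genes in each library, 1 panel a gene with its own axis from 0, symbols numbering the replicates and bars giving mean ± SD of 4. TNF values of Stx3 and Snap23 lie above and those of Rab27b and Rab3d below every PBS value, and TNF replicate 4 is the highest point of Snap23, Vamp8 and Sytl2 and the lowest of Chrm3, Rab3d and Rab27b.

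**Figure D3:**
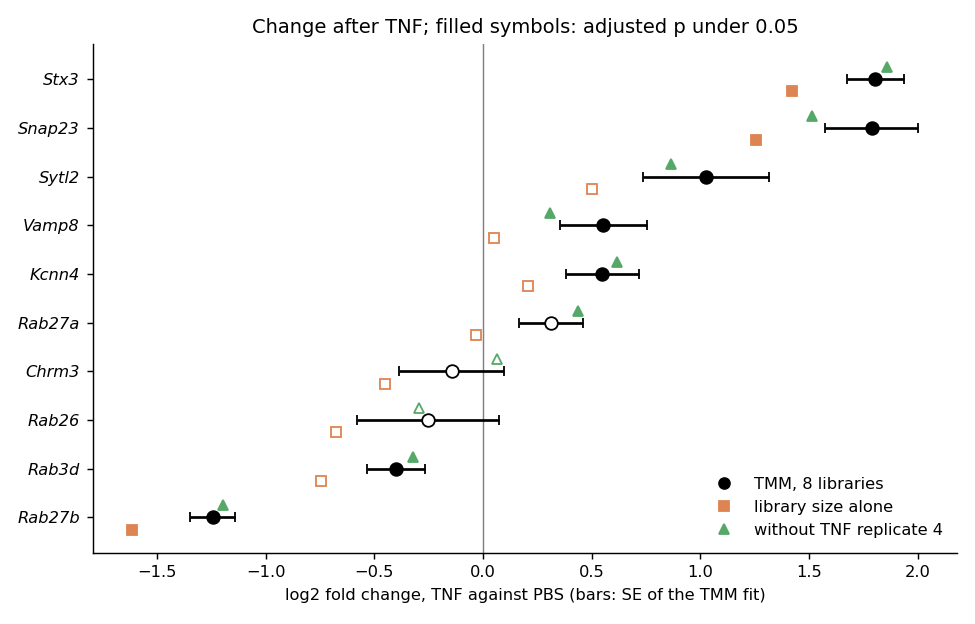
Log2 fold change of TNF against PBS for the 10 genes with TMM scaling (black, bars of 1 SE), with library size alone (orange) and without TNF replicate 4 (green), filled where the adjusted p was under 0.05. Stx3, Snap23 and Rab27b are filled in all 3 settings, and the orange symbol lies to the left of the black one for every gene.

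Among the Rab GTPases, Rab27b fell while its close relative Rab27a was not called. Rab27b (ENSMUSG00000024511, chr18:70112202-70274903 in GRCm39, minus strand) acts in docking secretory granules and is a common Rab27 form in exocrine cells. It measured 74.2, 76.3, 65.8 and 68.9 normalized CPM in PBS replicates 1 to 4 and 29.7, 30.9, 31.8 and 27.9 in TNF replicates 1 to 4. Both groups were tight, with a coefficient of variation of 6.74% in PBS and 5.61% in TNF, and they lay far apart. TNF moved the mean from 71.3 ± 4.81 to 30.1 ± 1.69 (SD, n = 4), 2.37-fold lower at a fitted log2 change of -1.24 ± 0.10 (SE) and an edgeR adjusted p of 6.778e-06. Leaving out TNF replicate 4 gave -1.20, and scaling by library size alone -1.62.

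Rab27a (ENSMUSG00000032202, chr9:72952124-73004911, plus strand), which recruits the same effectors and is known for lytic granule and melanosome transport, had PBS values of 50.8, 47.4, 45.6 and 55.3 normalized CPM. Its TNF values were 59.5, 66.0, 74.7 and 46.7. TNF replicates 1 to 3 lay above every PBS value, and TNF replicate 4 lay within the PBS range. The fitted log2 change of 0.31 ± 0.15 (SE) was not called (edgeR adjusted p = 0.1098). Without TNF replicate 4 it was 0.44 and called (edgeR adjusted p = 0.005197). It turned to -0.033 with library size alone.

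The ratio of Rab27a to Rab27b counts within a library does not depend on how libraries are scaled. On the log2 scale, with 0.5 added to each count, it was -0.52 ± 0.15 in PBS and 1.02 ± 0.21 in TNF (SD, n = 4). It ranged from -0.69 to -0.32 in PBS and from 0.74 to 1.23 in TNF, so the Rab27a count was below the Rab27b count in every PBS library and above it in every TNF library. That crossing is one of raw counts and depends on gene length. Per kilobase of exon, Rab27a was above Rab27b in every library of both groups, at 9.62 to 11.6 against 5.52 to 6.40 RPKM in PBS and 9.85 to 15.7 against 2.34 to 2.67 in TNF. The ratio itself went from 0.697 to 2.02, a 2.90-fold rise. The difference of 1.54 had a two-sided exact permutation p of 0.0286, the smallest that 70 assignments of the libraries can give. Adjusted over the 4 ratios tested it was 0.114, the lowest value that a single ratio at the smallest p can reach among 4. Leaving out any library gave differences of 1.47 to 1.63.

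Rab3d (ENSMUSG00000019066, chr9:21818510-21829622, minus strand), a Rab of exocrine granules, had the highest counts of the Rab genes, with 7652 to 11344 per PBS library and 2237 to 6873 per TNF library. It measured 289, 321, 301 and 257 normalized CPM in PBS and 223, 238, 232 and 192 in TNF. Every TNF value lay below every PBS value, by a margin that was small beside its level. Its mean moved from 292 ± 27.2 to 221 ± 20.3 (SD, n = 4) and was 1.32-fold lower, with a fitted log2 change of -0.40 ± 0.13 (SE) and an edgeR adjusted p of 0.03105. The call was lost in 8 of 16 alternatives, 6 of them the loss of 1 library (all but PBS replicate 4 and TNF replicate 4), with log2 fold changes of -0.75 to -0.35 and adjusted p of 0.0550 to 0.0959 where it was lost. The change was -0.32 without TNF replicate 4 (edgeR adjusted p = 0.02064).

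Rab26 (ENSMUSG00000079657, chr17:24746215-24753184, minus strand), a Rab tied to granule maturation in acinar and other secretory cells, was close to the limit of detection. Its counts were 24, 11, 9 and 28 in PBS and 12, 14, 10 and 6 in TNF. The groups overlapped, at 0.510 ± 0.150 and 0.444 ± 0.0724 normalized CPM (SD, n = 4). The fitted log2 change of -0.25 ± 0.33 (SE) was not called (edgeR adjusted p = 0.5588). Its SE was larger than the change itself, so these counts do not settle whether Rab26 changed. In addition, 507 bases (17.8%) of its exons overlap exons of Traf7 on the same strand, a gene at 20.7 ± 1.03 in PBS and 22.3 ± 0.456 in TNF, so some of its few counts may be shared. The log2 ratio of Rab3d to Rab26 was 9.16 ± 0.52 in PBS and 8.90 ± 0.36 in TNF (exact permutation p = 0.4, adjusted p = 0.533).

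Sytl2 (ENSMUSG00000030616, chr7:89951453-90059927, plus strand), a synaptotagmin-like protein that links Rab27 on granules to the plasma membrane, rose with a wide spread. Its coefficient of variation was the highest of the 10 genes in PBS (43.5%). In TNF it was 27.8%, below Snap23 (37.0%), Vamp8 (34.1%) and Chrm3 (33.9%). It measured 109, 77.9, 84.1 and 186 normalized CPM in PBS and 185, 177, 257 and 314 in TNF. PBS replicate 4 lay above TNF replicates 1 and 2, and the other 3 PBS libraries lay below every TNF library. TNF moved the mean from 114 ± 49.8 to 233 ± 64.8 (SD, n = 4), 2.04-fold higher at a fitted log2 change of 1.03 ± 0.29 (SE) and an edgeR adjusted p of 0.0146. Leaving out TNF replicate 4 gave 0.86 (edgeR adjusted p = 0.0164). Scaled by library size alone the change was 0.50 and not called (edgeR adjusted p = 0.3259).

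The membrane SNAREs Stx3 and Snap23 and the granule SNARE Vamp8 were all called higher. Stx3 (ENSMUSG00000041488, chr19:11752463-11796767, minus strand), the syntaxin of the apical membrane in intestinal epithelium, measured 12.5, 11.4, 11.2 and 13.5 normalized CPM in PBS and 36.0, 45.9, 49.2 and 38.6 in TNF. Every TNF library was well above every PBS library. Its mean moved from 12.1 ± 1.09 to 42.4 ± 6.16 (SD, n = 4) and was 3.50-fold higher, with a fitted log2 change of 1.81 ± 0.13 (SE) and an edgeR adjusted p of 2.975e-06. Leaving out TNF replicate 4 gave 1.86, and scaling by library size alone 1.42.

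Snap23 (ENSMUSG00000027287, chr2:120397782-120433531, plus strand), the widely expressed partner that adds further helices to the SNARE bundle, measured 22.9, 23.8, 23.0 and 26.1 normalized CPM in PBS. In TNF it measured 64.4, 71.3, 67.3 and 129. All TNF values lay above all PBS values, and TNF replicate 4 lay far above the other 3 TNF libraries. TNF moved the mean from 24.0 ± 1.46 to 83.0 ± 30.7 (SD, n = 4), 3.45-fold higher at a fitted log2 change of 1.79 ± 0.21 (SE) and an edgeR adjusted p of 7.673e-05. Without TNF replicate 4 the change was 1.51 (edgeR adjusted p = 1.857e-07), and with library size alone 1.26.

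The log2 ratio of Stx3 to Snap23 counts was -0.98 ± 0.087 in PBS and -0.92 ± 0.57 in TNF (SD, n = 4), a difference of 0.07 (exact permutation p = 0.857, adjusted p = 0.857). TNF replicate 4 was at -1.74, and the other TNF libraries were between -0.84 and -0.45, above every PBS value. Without that library the difference was 0.34 (exact permutation p adjusted over the 4 ratios = 0.114).

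Other genes share exons with both loci on the opposite strand. Lrrc57 overlaps 2179 bases (30.0%) of Snap23 exons, and Mrpl16, a mitochondrial ribosomal protein gene, overlaps 1376 bases (10.2%) of Stx3 exons. The library kit keeps strand, but the sources used here do not say whether the counting used it. Lrrc57 was at 4.12 ± 0.436 normalized CPM in PBS and 4.44 ± 1.16 in TNF (log2 fold change 0.08, edgeR adjusted p = 0.7648), a level below that of Snap23 in both groups. Mrpl16 was at 8.33 ± 1.98 and 11.5 ± 1.45 (log2 fold change 0.47, edgeR adjusted p = 0.05715).

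Vamp8 (ENSMUSG00000050732, chr6:72359012-72368482, minus strand) measured 29.8, 36.3, 34.2 and 31.6 normalized CPM in PBS and 37.1, 43.5, 40.5 and 73.1 in TNF. The groups did not overlap, but the gap between PBS replicate 2 and TNF replicate 1 was narrow and TNF replicate 4 stood high. Its mean moved from 33.0 ± 2.87 to 48.6 ± 16.6 (SD, n = 4) and was 1.47-fold higher, with a fitted log2 change of 0.55 ± 0.20 (SE) and an edgeR adjusted p of 0.04373. Without TNF replicate 4 it was 0.31 (edgeR adjusted p = 0.02536). The call was lost in 8 of 16 alternatives, among them limma-voom (0.49, adjusted p = 0.05017), library size alone (0.05) and the loss of any PBS library or of TNF replicate 2 (adjusted p = 0.05816 to 0.1115).

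On the triggering side, the channel rose slightly and the receptor was not called. Kcnn4 (ENSMUSG00000054342, chr7:24066915-24086115, plus strand) measured 11.0, 11.0, 13.5 and 7.74 normalized CPM in PBS and 18.1, 15.8, 15.1 and 14.0 in TNF. All TNF values lay above all PBS values, with PBS replicate 3 close to TNF replicate 4. TNF moved the mean from 10.8 ± 2.35 to 15.7 ± 1.73 (SD, n = 4), 1.46-fold higher at a fitted log2 change of 0.55 ± 0.17 (SE) and an edgeR adjusted p of 0.02154. The call was lost in 5 of 16 alternatives, namely library size alone (0.21) and the loss of PBS replicate 1 or 4 or of TNF replicate 1 or 2 (0.38 to 0.53, edgeR adjusted p = 0.05756 to 0.08888). The change was 0.62 without TNF replicate 4 (edgeR adjusted p = 0.009251).

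Chrm3 (ENSMUSG00000046159, chr13:9925522-10410883, minus strand), a muscarinic acetylcholine receptor that couples to phospholipase C, measured 25.7, 31.2, 25.5 and 38.8 normalized CPM in PBS. In TNF it measured 26.6, 30.3, 37.1 and 15.0. TNF replicate 4 lay below all other libraries, and the remaining TNF libraries lay within the PBS range. The fitted log2 change of -0.14 ± 0.24 (SE) was not called (edgeR adjusted p = 0.6603), and without TNF replicate 4 its sign turned (0.063, edgeR adjusted p = 0.7655). The log2 ratio of Kcnn4 to Chrm3 went from -1.49 ± 0.61 to -0.72 ± 0.51 (SD, n = 4), a difference of 0.77 with overlapping groups (exact permutation p = 0.143, adjusted p = 0.286).

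**Figure D4:**
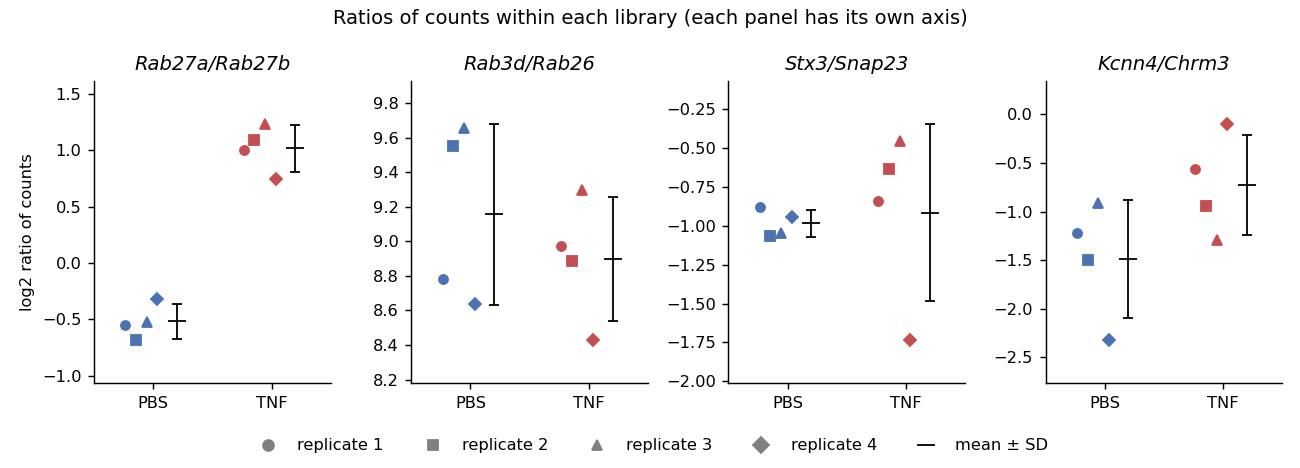
Log2 ratio of counts within each library for 4 pairs of genes, 1 panel a pair with its own axis, symbols numbering the replicates and bars giving mean ± SD of 4. The Rab27a/Rab27b ratios of TNF libraries (0.74 to 1.23) lie above all PBS ratios (-0.69 to -0.32), and the groups overlap in the other 3 panels.

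A further 82 genes of regulated exocytosis were listed by role. Of these 81 were matched in the table and 66 tested. In TNF 9 were called higher and 13 lower, so 33.3% were called, against 43.0% of all tested genes. Their median log2 fold change was -0.08, against 0.03 over all tested genes.

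Of 10 other Rab genes and Rab regulators tested, 3 were called higher and 2 lower, or 5 of 10 against 43.0% of all tested genes. Rab8b and Rab11a, Rabs of apical and recycling traffic, rose from 3.84 ± 0.587 to 8.24 ± 1.55 normalized CPM (log2 fold change 1.11, edgeR adjusted p = 0.0005549) and from 21.7 ± 2.70 to 46.9 ± 13.5 (1.11, edgeR adjusted p = 0.0007623). The change of Rab11a was 0.91 without TNF replicate 4 (edgeR adjusted p = 6.227e-05). Rab3a, best known from synaptic vesicles, fell from 4.07 ± 1.02 to 1.02 ± 0.250 (-1.99, edgeR adjusted p = 0.0001488). With TMM scaling, the 2 subunits of the GTPase-activating complex for Rab3 proteins were called in opposite directions. Rab3gap2 fell from 28.7 ± 1.41 to 21.3 ± 1.05 (-0.43, edgeR adjusted p = 0.004728), and Rab3gap1, named after its values were seen, rose from 33.4 ± 2.12 to 42.6 ± 3.84 (0.35, edgeR adjusted p = 0.02239). Rab3gap1 was not read under the alternatives, and library size alone had a median shift per gene of -0.39, so its rise may depend on the scaling. Under library size alone the calls of Rab8b (0.76, edgeR adjusted p = 0.117), Rab11a (0.63, 0.0934) and Rab3gap2 (-0.82, 0.0750) were lost, the last with a larger fall. Rab3a fell under every alternative run.

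Of 12 other effectors and motors tested, 3 were called, all of them lower, against 19.6% of all tested genes called lower. Among other Rab27 effectors of the list, Sytl4, Sytl5, Exph5 and Rph3al were not called (log2 fold changes of -0.40 to 0.0055). Myrip, which joins Rab27 to myosin motors, fell from 27.5 ± 4.48 to 10.9 ± 1.95 normalized CPM (log2 fold change -1.34, edgeR adjusted p = 8.435e-05). Sytl1, a relative of Sytl2, fell from 21.3 ± 2.15 to 10.8 ± 4.07 (edgeR adjusted p = 0.003412), and without TNF replicate 4 its log2 fold change was -1.26. Mlph, which binds Rab27 and actin motors and is named after its values were seen, fell from 138 ± 20.6 to 75.8 ± 14.9 (-0.86, edgeR adjusted p = 0.00161). That the directions of Sytl1 and Sytl2 differ rests on their separate tests.

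Of 5 other SNAREs tested, 2 were called, both higher, against 23.4% of all tested genes called higher, and 1 of these (Stx11) had few counts in PBS. Stx11, a syntaxin used by cytotoxic lymphocytes and other blood cells to release granules, had 8, 1, 1 and 3 counts in PBS and 136, 171, 238 and 50 in TNF. Its mean was 0.0897 ± 0.0843 normalized CPM in PBS and 5.85 ± 1.80 in TNF. It passed the filter on low counts through the TNF libraries alone, and its fitted log2 change of 5.87, which was 6.70 without PBS replicate 1, rests on few PBS counts and is given as a description. The summed level of the immune markers was 54.0 to 74.1 in PBS and 61.3 to 116 in TNF, with 1 of 3 tested (Cd52) called higher. Most of it was Cd74 (mean 52.2 and 63.6, not called), Lyz2 was at 9.14 and 24.0 (log2 fold change 1.37, not called, edgeR adjusted p = 0.0805), the general leukocyte marker Ptprc was at 0.222 and 0.211, and their part in the Stx11 result was not tested. Vamp3, a SNARE of recycling endosomes, rose from 28.9 ± 1.24 to 41.4 ± 9.48 (0.51, edgeR adjusted p = 0.01667), 0.36 without TNF replicate 4 and 0.05, not called, under library size alone. The neuronal Snap25 had at most 3 counts in any library.

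Of 21 SNARE regulators and exocyst subunits tested, 2 were called higher and 4 lower, so 28.6% were called, against the same 43.0%. Stxbp2, a syntaxin-binding protein that pairs with Stx3 and Stx11 in other cells and is named after its values were seen, stood at 33.1 ± 1.99 normalized CPM in PBS and 35.1 ± 1.82 in TNF (log2 fold change 0.08, edgeR adjusted p = 0.5266). Of the exocyst, a complex that tethers vesicles, Exoc5 rose from 18.8 ± 1.26 to 36.7 ± 4.10 (0.96, edgeR adjusted p = 7.551e-05), a call lost under library size alone (0.60, edgeR adjusted p = 0.2153). Exoc7 fell from 12.7 ± 0.439 to 9.95 ± 0.773 (-0.35, edgeR adjusted p = 0.02405), a call lost in 7 of 16 alternatives. The exocyst subunits Exoc1, Exoc2, Exoc3, Exoc4, Exoc6 and Exoc8 were not called (log2 fold changes of -0.33 to 0.26). Syt13, an atypical synaptotagmin, fell from 5.03 ± 1.30 to 2.17 ± 0.892 (-1.16, edgeR adjusted p = 0.008229).

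Of 18 receptors, calcium signalling genes and channels tested, 2 were called higher and 4 lower, so 33.3% were called, against 43.0% of all tested genes. Orai1, a pore subunit of the store-operated channel, rose from 5.21 ± 0.757 to 32.3 ± 7.34 normalized CPM (log2 fold change 2.64, SE 0.18, edgeR adjusted p = 1.921e-06). Stim2, a calcium sensor of the endoplasmic reticulum, rose from 52.0 ± 9.57 to 84.2 ± 22.0 (0.70, edgeR adjusted p = 0.01617), with overlapping groups and a call lost in 5 of 16 alternatives. The change of Stim2 was 0.86 without TNF replicate 4 (edgeR adjusted p = 0.0004318). Orai3, another pore subunit, fell from 12.8 ± 0.995 to 6.23 ± 0.801 (-1.03, edgeR adjusted p = 0.0001218), as did Orai2, named after its values were seen, from 18.9 ± 2.85 to 14.0 ± 1.23 (-0.43, edgeR adjusted p = 0.02325). The sensor Stim1 fell from 29.6 ± 1.32 to 19.8 ± 1.70 (-0.58, edgeR adjusted p = 0.001223). The calls of Orai1 and Orai3 held under library size alone and that of Stim1 did not, though its fall was larger there (-0.94, edgeR adjusted p = 0.0541). Rph3a, Cckar and Kcnn2 of the 82 listed genes had 0 counts in every library.

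**Figure D5:**
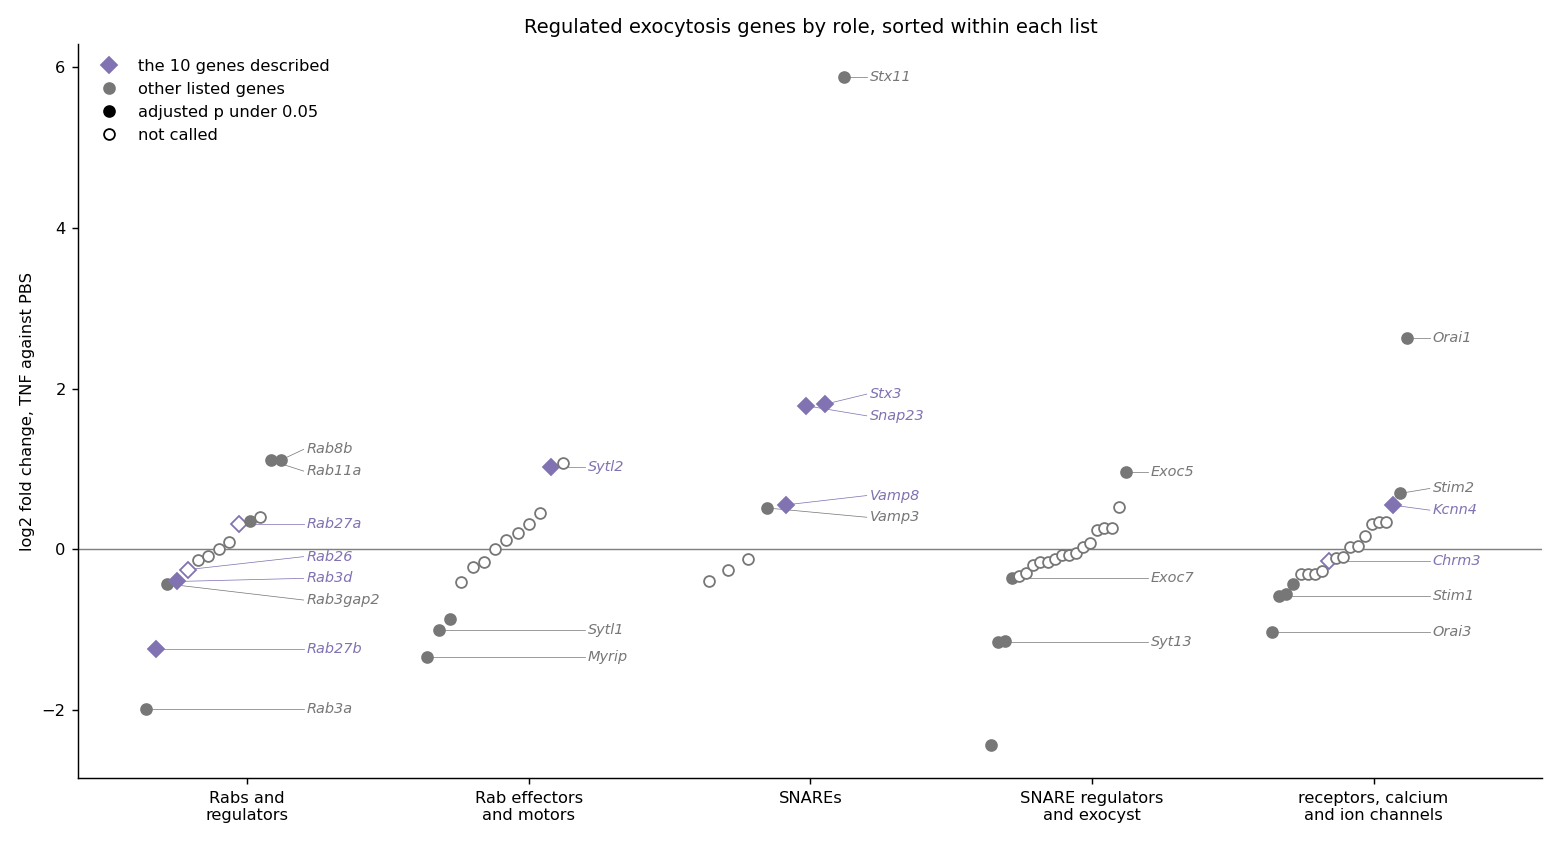
Log2 fold change of TNF against PBS for the tested genes of 5 role lists, sorted within each list and leaving out 1 gene that is not reported here, with the 10 genes described as diamonds, other listed genes as circles, and filled symbols where the adjusted p was under 0.05. Stx11 (5.87) and Orai1 (2.64) are the highest circles, and Syt1 (-2.44, unlabelled in the fourth list) and Rab3a (-1.99) the lowest. Syt1, named outside the rule, had at most 45 counts in any library, at a mean of 1.07 normalized CPM in PBS and 0.192 in TNF.

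The genes whose pattern over the 8 libraries lay nearest to Stx3 and Rab27b, the genes with the highest and lowest log2 fold change of the 10, were found by Euclidean distance of log2 normalized CPM (0.5 added) after centring each gene on its PBS mean. Nearest to Stx3 were Nab1, a transcriptional corepressor (distance 0.284, log2 fold change 1.79), Rab11fip1, a Rab11 effector (0.303, 1.68), and Rhbdf2, an inactive rhomboid protein that carries the TNF-releasing protease ADAM17 (0.348, 1.81). Nearest to Rab27b were Abtb1 (0.230, -1.22), Acaa2, an enzyme of mitochondrial fatty acid oxidation (0.259, -1.24), and Pcmtd2 (0.278, -1.20). Distance was used only as a description of likeness over these libraries.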

How the data were processed

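The authors deposited raw counts per Ensembl gene ID, 1 column per library, without normalization; the submitters' processing notes name FastQC 0.12, STAR 2.7.10a, DESeq2 and mm39. For its pooled alignments the study's methods name a GENCODE annotation on GRCm39. Whether it served this table, and the counting tool, strand setting and treatment of multi-mapping reads, the sources used here do not say. Libraries were made with a stranded mRNA kit, and each was 1 biological replicate per the design text. GENCODE M39 (GRCm39) gave symbols and exons for 54749 of the IDs. The fit took all 8 libraries, with no covariate, in edgeR 4.0.16 (R 4.3.3; TMM, filterByExpr, quasi-likelihood F test, Benjamini-Hochberg over 13368 genes, adjusted p under 0.05). RPKM used the union of exons. Ratios were compared by two-sided exact permutation tests.

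The 10 genes and all lists were chosen with earlier results of these data known. Other genes were named by rule: up to 2 called rises and 2 called falls per role list with a mean level of 1 normalized CPM or more, and the 3 nearest profiles. Alternatives were library size alone, RLE scaling, Defa genes left out of the scaling, other filters, DESeq2 1.42.0, limma-voom (limma 3.58.1), a replicate block, an adjusted p under 0.01 and leaving out each library. The code was tested on simulated counts. No 2 libraries of a group were duplicates (lowest chi-square per degree of freedom 8.77). Counts limit precision most for Rab26, with 6 to 28 per library. Vamp7 had no matched ID and no value. A few listed genes are counted but not reported here by name.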

Additional observations from a re-analysis of the deposited data

Results flagged for a closer look

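In 4 of 72 groups of 4 libraries checked, 1 library lay far from the other 3 by Dixon's test, and chance gives about 1 in 20. TNF replicate 4 was that library in 3 of them. Snap23 was at 129 normalized CPM in TNF replicate 4 and at 64.4 to 71.3 in the other TNF libraries. Vamp3 was at 55.5 there and at 35.6 to 38.6 in the others, and Sytl1 at 16.8 against 7.89 to 9.30. PBS replicate 4 had 26.7 normalized CPM of Nab1, against 19.9 to 20.6 in the other PBS libraries.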

How the results depend on the processing

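Under library size alone, 3182 genes were called (757 higher, 2425 lower, so 23.8% higher against 54.3% with TMM), with 3 of the 10 genes and 11 of the other listed genes. At an adjusted p under 0.01, 3 of the 10 were called. Leaving out 1 library gave 4756 to 6922 calls over all genes, 4 (without PBS replicate 1 or TNF replicate 2) to 8 (without TNF replicate 4) among the 10, and 17 to 29 among the other listed genes. Rab27a turned to -0.0330 under library size alone, and Chrm3, at -0.32 to 0.0635 over losses of 1 library, turned positive without TNF replicate 4 alone. The log2 ratio difference of Stx3 to Snap23 was -0.0869 to 0.34 over losses of 1 library, with its sign turned without TNF replicate 2 (-0.0262) or 3 (-0.0869). The other ratio differences kept their sign, at 1.47 to 1.63 for Rab27a to Rab27b, -0.43 to -0.09 for Rab3d to Rab26 and 0.49 to 0.96 for Kcnn4 to Chrm3. The order by level moved for 2 genes with the longest transcript as length, and for 7 in TNF. Deviations of same-numbered libraries had correlations of 0.06, 0.07, -0.23 and -0.19, and those of differently numbered libraries -0.23 to 0.33. With 4 libraries a group, such values cannot show whether the numbers pair them. With a replicate block, 5087 genes were called, 6 of the 10 (without Vamp8, 0.51, adjusted p = 0.07319) and 18 of the other listed genes, with Exoc7 and Stim2 among those lost. The cause of these changes was not tested. Over the 16 alternatives, Rab27b, Stx3 and Snap23 and 14 of 22 other genes named by rule kept direction and side of the threshold. Rab26 did so where it was tested, having failed the filter of at least 1 CPM in 4 libraries.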
